A study of Mus musculus with 22 samples.

Results

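CD8+ T cells of Tcaim knock-in mice after 48 h of stimulation were set against wild-type cells after 24 h, a comparison that asks whether the later knock-in cells match the earlier wild-type state and which genes differ from both wild-type times. The comparison used 6 of the 22 libraries of the series, chosen by label: 3 of KI 48 h and 3 of wt 24 h, paired by the experiment (1, 3 and 5) that the labels name. Libraries of wt 48 h and wt naive cells of the same line, 3 each, served as reference points. KI mice carried a conditional Tcaim knock-in (genotype hocre) and wt mice were wtcre animals of the same line, Tcaim KI Cd4Cre, so both groups carried Cre. Mice of experiments 1 and 3 were male and those of experiment 5 female, their age is not given in the sources used here, and each library came from 1 mouse. Naive cells came from spleen and lymph nodes, with other cells depleted on magnets, and were stimulated with plate-bound αCD3 (clone 145-2C11, 2 µg/ml) plus soluble αCD28 (clone 37.51, 1 µg/ml), antibodies that stand in for antigen and for costimulation. The wt 24 h and wt 48 h cells of an experiment came from 1 mouse, and its KI cells from another.

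Tcaim encodes a mitochondrial protein named as an inhibitor of T cell activation. Cre under the Cd4 promoter acts in thymocytes before the CD8 lineage separates, so CD8+ T cells of such mice carry the recombined allele. After engagement of the T cell receptor, a naive CD8+ T cell first grows and turns on glucose uptake, glycolysis, sterol and fatty acid synthesis and DNA replication genes, and then divides and acquires granzymes and cytokines while genes of the naive state decline.

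Total counts ran from 69000100 to 87452836 in the 6 compared libraries. The defining markers of CD8 T cells summed to between 2795 and 3035 CPM (counts scaled to a common library size and composition) in wt 24 h and between 2625 and 2823 in KI 48 h. Summed B cell markers, of which Ighm was the main part, reached 672 to 993 CPM in wt 24 h and 557 to 852 in KI 48 h, dendritic cell markers 146 to 453 and 288 to 691, myeloid markers 21.03 to 52.4 and 29.8 to 55.4, and NK cell markers 1.59 to 5.20 and 1.85 to 2.76. Lymph node stroma markers, mostly Pecam1, summed to 114 to 158 and 147 to 197 CPM, and Dcn was at 0 in all 6 libraries. Unlike their sum, the mean log2 CPM over the 9 B cell markers was higher in KI 48 h than in wt 24 h. The differences were 0.53, 0.32 and 0.21 in experiments 1, 3 and 5. In bulk RNA, fewer cells of a type and less RNA per cell cannot be told apart. The wt 48 h libraries lay farther from each other than those of wt 24 h or KI 48 h, 0.573 to 0.825 log2 units (root mean square over 14661 genes), with the longest distance between experiments 3 and 5. Genes called as differing from both wt 24 h and wt 48 h are therefore also given without 1 wt 48 h library. It was the one whose omission moved their number most, experiment 3. Other results that rest on wt 48 h, such as list counts, were not refitted without it.

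Tcaim (ENSMUSG00000046603, chromosome 9, 122805539 to 122836334, GRCm38) was measured at 9.85, 8.37 and 10.1 CPM in wt 24 h libraries of experiments 1, 3 and 5, at 233, 229 and 260.0 CPM in KI 48 h and at 9.196, 11.99 and 9.04 CPM in wt 48 h. All KI 48 h libraries were far above all wt libraries. The log2 fold change of KI 48 h against wt 24 h was 4.67 ± 0.14 (SE), with an adjusted p of 1.14e-11 from the edgeR quasi-likelihood test with Benjamini-Hochberg adjustment, which gives every adjusted p below.

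Over the 14661 genes of this measure the KI 48 h cells lay nearer to wt 24 h than to wt 48 h in each experiment. The root mean square log2 distance from KI 48 h to wt 24 h was 0.4998, 0.516 and 0.574 in experiments 1, 3 and 5. To wt 48 h it was 0.657, 0.534 and 0.634, and to wt naive 1.29, 1.34 and 1.37. Replicates could only be compared across experiments. Between experiments 1 and 3, both of male mice, the distance was 0.356 for wt 24 h and 0.322 for KI 48 h, below each distance from KI 48 h to wt 24 h. Pairs with experiment 5, of female mice, lay 0.514 and 0.568 apart for wt 24 h and 0.494 and 0.514 for KI 48 h. In experiment 3 the distances to wt 24 h and to wt 48 h differed little.

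Of 20228 genes tested, 1026 (5.07%) were called in KI 48 h against wt 24 h at an adjusted p under 0.05, and 727 (3.59%) were higher and 299 (1.48%) lower in KI 48 h. The shares of higher and lower genes are the background for the list counts of this comparison below. Of the called genes 431 differed at least 2-fold, 361 of them higher. For 13073 genes (64.6%) the 95% interval of the log2 fold change lay within 1 of zero, and among the 10288 genes with a mean of 10 CPM or more in either group this held for 94.6%. A gene inside this bound can still differ by less than 2-fold, so it is not shown to be unchanged. The median log2 fold change over all genes was -0.0077. Without the experiment as a block 582 genes were called. The fit shares its estimate of spread over 18 libraries, 3 from each of 6 mice, so part of that spread is within mice. With the 6 compared libraries alone, 1 per mouse, 143 genes were called (133 higher and 10 lower), and with all 22 libraries 300. Leaving out KI 48 h of experiment 1, 3 or 5 left 399, 615 or 591 calls, and leaving out wt 24 h of experiment 1 or 3 left 337 or 604.

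**Figure D1:**
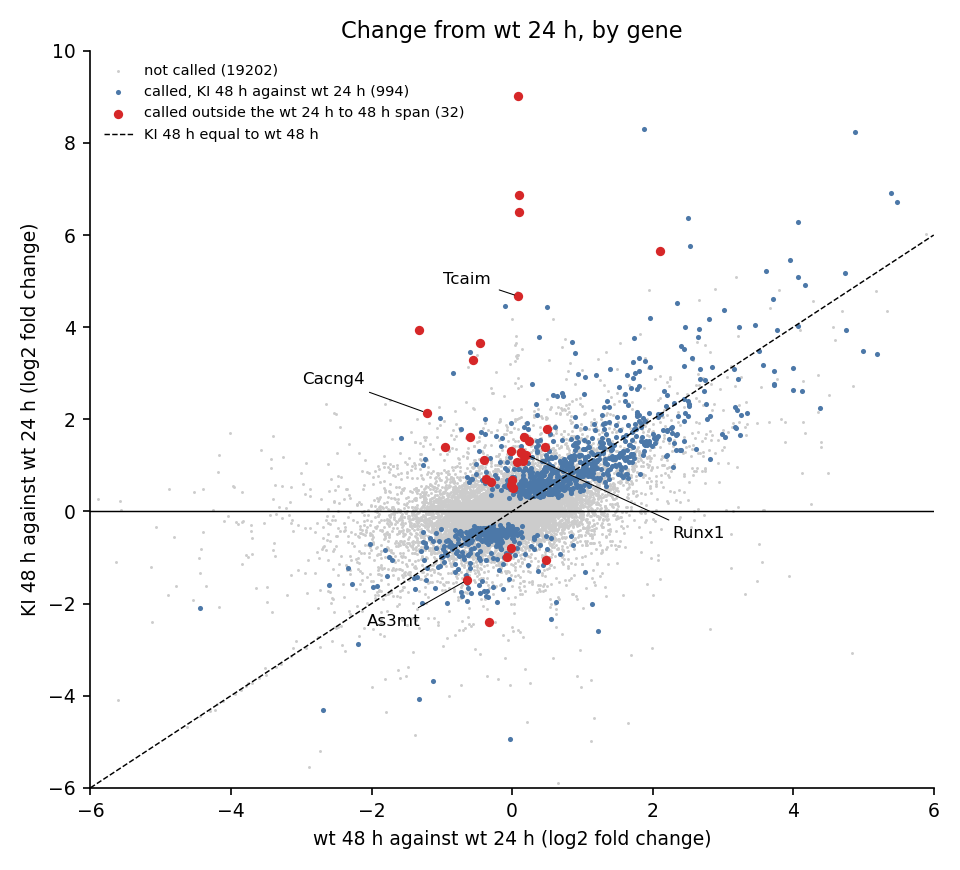
Each point is a gene, with the log2 fold change of wt 48 h against wt 24 h on the horizontal axis and of KI 48 h against wt 24 h on the vertical axis; both share the wt 24 h libraries, so the slope of the cloud is not a result. Grey points were not called, blue points were called in KI 48 h against wt 24 h, red points are the 32 genes called outside the wt 24 h to 48 h span, the solid line marks wt 24 h, the dashed line wt 48 h, and 6 genes lie beyond the axes. The fold changes of genes with almost no counts in wt depend on the prior count of the fit.

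The genes with the strongest evidence of being higher in KI 48 h included a lectin, a costimulatory receptor and genes of energy metabolism. Lgals1, which encodes the secreted lectin galectin-1, had 41.6, 45.5 and 47.03 CPM in wt 24 h, 98.1, 114 and 125 in KI 48 h and 230.4, 216 and 257 in wt 48 h. The 3 groups did not overlap and KI 48 h lay between the wt groups, with a log2 fold change of 1.32 ± 0.11 from wt 24 h (adjusted p = 2.54e-05) and -1.06 from wt 48 h (adjusted p = 6.23e-05). Lgals1 was also among the genes that rose most clearly in wt cells from 24 h to 48 h.

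Ak4, a mitochondrial adenylate kinase, had 6.28, 11.7 and 5.27 CPM in wt 24 h and 44.3, 44.3 and 49.99 in KI 48 h, a log2 fold change of 2.68 ± 0.24 (adjusted p = 4.02e-05). In wt 48 h it had 21.98, 37.3 and 15.9 CPM, below every KI 48 h library. Plk2, a kinase of the polo family, had 2.19, 3.25 and 5.295 CPM in wt 24 h against 29.99, 45.9 and 72.4 in KI 48 h (log2 fold change 3.78 ± 0.36, adjusted p = 5.72e-05). Its wt 48 h values, 18.9, 29.9 and 17.8 CPM, lay between, and only the lowest KI 48 h and the highest wt 48 h value came close. Gprin3 rose by a log2 fold change of 1.40 and was at the wt 48 h level, from 21.5, 28.5 and 23.9 CPM in wt 24 h to 73.7, 63.6 and 58.4 in KI 48 h and 66.99, 60.2 and 52.6 in wt 48 h.

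Tnfrsf18, which encodes the costimulatory receptor GITR, had 66.03, 63.8 and 66.8 CPM in wt 24 h and 129.8, 146 and 178 in KI 48 h (log2 fold change 1.20 ± 0.11, adjusted p = 5.42e-05), with 176, 216 and 174 CPM in wt 48 h. The groups wt 24 h and KI 48 h did not overlap. Gm16008, annotated on the opposite strand with exons over Tnfrsf18, rose alike (log2 fold change 1.17). The counts of the 2 genes cannot be told apart where counting ignored strand, which the sources used here do not state.

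Among the genes that fell, the nucleotide repair enzyme Ung had 120.5, 109 and 84.1 CPM in wt 24 h and 48.6, 48.3 and 61.5 in KI 48 h (log2 fold change -0.97 ± 0.13, adjusted p = 0.000614). Its wt 48 h values were 57.2, 51.9 and 45.3 CPM, so both 48 h groups were low. Cd52, a small surface glycoprotein of lymphocytes, fell from 702, 664 and 604 to 379, 293 and 469 CPM (log2 fold change -0.83 ± 0.13, adjusted p = 0.00224) and stood at 335, 265 and 429 in wt 48 h. Rufy1, Snapc5 and Spin2c followed the same course, with log2 fold changes of -0.70, -0.74 and -1.22 in KI 48 h and -0.77, -0.96 and -1.21 in wt 48 h, all against wt 24 h. Lrrc20 and Ap1g2 fell by 0.82 and 0.52. As3mt, Tle1 and Dnajb5 were also among the 10 and are described with the genes outside the wt span.

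Glycolysis and lactate transport genes were clearly higher in KI 48 h than in wt 24 h. Their median stood near the wt 48 h level, but the experiments differed in direction. Of 22 members tested 13 rose, and the median log2 fold change was 0.67, beside -0.0077 over all genes. From wt 24 h to wt 48 h the median was 0.72, and 15 members were called higher, as were 8.54% of all genes. Slc16a3, the lactate exporter MCT4, had 8.11, 15.9 and 7.83 CPM in wt 24 h, 83.8, 111 and 110.1 in KI 48 h and 48.1, 121 and 28.2 in wt 48 h. The compared groups did not overlap (log2 fold change 3.34 ± 0.35, adjusted p = 0.000119), while among wt 48 h libraries experiment 3 was by far the highest. The glucose transporter gene Slc2a1 had 43.3, 56.1 and 42.6 CPM in wt 24 h and 90.04, 88.6 and 121 in KI 48 h (log2 fold change 1.10 ± 0.15, adjusted p = 0.000614).

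Pfkfb3, whose product raises the activator of phosphofructokinase, went from 45.4, 56.4 and 55.8 to 98.1, 124 and 102 CPM (log2 fold change 1.03 ± 0.13, adjusted p = 0.000564). Tpi1 (triosephosphate isomerase) and Eno1 (enolase) rose by 1.36 and 0.82. Every experiment showed the shift from wt 24 h, with the mean over members higher in KI 48 h by 0.68, 0.52 and 1.01 log2 units in experiments 1, 3 and 5. Against wt 48 h the mean over members in KI 48 h differed by 0.02, -0.41 and 0.38 log2 units. The number of members called was 4 with the compared groups alone, 9 with all 22 libraries, 10 without the experiment block, 7 without KI 48 h of experiment 5 and 8 without wt 24 h of experiment 1.

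The promoters of these genes (250 bases before to 50 after each start, RefSeq, GRCm38.p6) were searched on both strands for ACGTG, the core of the hypoxia response element, which also lies within the E-box CACGTG. A RefSeq promoter was found for 21 of the 22 genes. Of their 33 windows 17 (51.5%) held ACGTG, as did 19.6% of all 32851 windows, and 14 of the 21 genes had it in at least 1 window. Base composition was not matched, and a match is a description of letters only. Windows upstream of the start of 4 called genes are shown as examples, 5′ to 3′ on the gene's strand, with 1 match each in capitals (ACGTG or its reverse complement CACGT). The Pgk1 stretch holds another match, cacgt, in lower case.
Slc2a1, chr4:119108679-119108743, plus strand: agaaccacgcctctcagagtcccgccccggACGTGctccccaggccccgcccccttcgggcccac
Pfkfb3, chr2:11553955-11554019, minus strand: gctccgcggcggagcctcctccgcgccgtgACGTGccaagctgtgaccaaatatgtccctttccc
Aldoa, chr7:126799346-126799410, minus strand: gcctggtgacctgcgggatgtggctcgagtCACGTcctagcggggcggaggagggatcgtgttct
Pgk1, chrX:106186920-106186984, plus strand: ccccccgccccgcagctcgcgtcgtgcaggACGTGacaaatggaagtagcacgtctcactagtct

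Mitosis genes rose as a broad group. Of 36 members tested 21 were called higher in KI 48 h (median log2 fold change 0.96), beside 3.59% of all genes. From wt 24 h to wt 48 h the median was 1.18 with 34 called higher, beside 8.54% of all genes. Ccnb2, a mitotic cyclin, had 9.66, 26.7 and 8.31 CPM in wt 24 h, 69.5, 67.1 and 63.6 in KI 48 h and 90.02, 112 and 76.3 in wt 48 h. KI 48 h lay between the wt groups with no overlap (log2 fold change from wt 24 h 2.32 ± 0.26, adjusted p = 0.000186). Ube2c and Cdc20, which act in the destruction of mitotic proteins, rose by 2.29 ± 0.35 and 1.59 ± 0.24, and Cenpa, the histone of centromeres, by 1.32 ± 0.21.

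The size of the mitosis shift differed between experiments. The member mean in wt 24 h was 5.43, 6.34 and 4.92 log2 CPM in experiments 1, 3 and 5, and in KI 48 h 6.64, 6.71 and 6.57. Experiment 3 had the highest wt 24 h value and the smallest shift, 0.37, against 1.21 and 1.65. The number of members called was 1 with the compared groups alone, 10 with all 22 libraries, 6 without the experiment block, 9 and 7 without KI 48 h of experiment 1 and 5, and 6 and 10 without wt 24 h of experiment 1 and 5.

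DNA replication genes, in contrast, were not called in either direction. None of 37 licensing and firing factors was called by edgeR (16 had an unadjusted p under 0.05, 15 of them lower, and DESeq2 called 1 higher and 3 lower), and all 37 intervals lay within 1 log2 unit of zero. The median log2 fold change was -0.24 against wt 24 h and 0.03 for wt 48 h against wt 24 h. Mcm2, part of the replicative helicase, had 385, 414 and 299.6 CPM in wt 24 h and 258, 261 and 292 in KI 48 h (log2 fold change -0.43, adjusted p = 0.053). Dbf4, the activator of the CDC7 kinase, went the other way with 0.50 (adjusted p = 0.0571). The member mean in wt 24 h was 7.05, 7.23 and 6.64 log2 CPM in experiments 1, 3 and 5 and 6.78, 6.78 and 6.86 in KI 48 h, and without wt 24 h of experiment 5, its lowest library, 10 members were called lower. Of 22 cyclins, CDK inhibitors and related cell cycle genes 2 rose and 1 fell, beside 3.59% and 1.48% of all genes. The CDK inhibitor gene Cdkn1a had 7.14, 7.29 and 23.8 CPM in wt 24 h, 23.6, 39.9 and 50.5 in KI 48 h and 82.02, 75.1 and 194 in wt 48 h, and E2f1, a transcription factor of S phase entry, fell by 0.56. Neither direction kept a call in this list without KI 48 h of experiment 1, 3 or 5 or wt 24 h of experiment 1.

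Genes of effector function were partly raised. Of 25 effector molecules tested 8 rose, the median log2 fold change was 0.76, and the wt 48 h median was 0.98. Gzmb, which encodes granzyme B, had 68.02, 332 and 49.3 CPM in wt 24 h, 499, 759 and 862 in KI 48 h and 2075, 1953 and 1786 in wt 48 h. KI 48 h lay above every wt 24 h and below every wt 48 h library, with log2 fold changes of 2.61 ± 0.46 (adjusted p = 0.0035) and -1.52 (adjusted p = 0.0318). Nkg7, a protein of cytotoxic granules, and the protease inhibitor genes Serpinb6b and Serpinb9 rose by 1.21 ± 0.21, 1.78 ± 0.25 and 0.98 ± 0.17. Tnfsf10, which encodes the death ligand TRAIL, had 23, 19.7 and 22.1 CPM in wt 24 h, 39.9, 32.5 and 40.4 in KI 48 h and 26.5, 26.98 and 24.1 in wt 48 h, so KI 48 h was the highest of these groups. Its adjusted p was 0.000642 against wt 24 h and 0.0582 for lying outside both wt 24 h and wt 48 h. In wt naive cells it was near the KI 48 h level, with unscaled counts of 2937, 2559 and 2310 against 2736, 2362 and 2885.

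Ifng, which encodes interferon gamma, was not called against wt 24 h and was lower than in wt 48 h. It averaged 5.28 ± 3.18 CPM in wt 24 h (mean ± SD, n = 3), 15.99 ± 14.9 in KI 48 h and 74.98 ± 51.8 in wt 48 h. The adjusted p was 0.131 against wt 24 h, and the log2 fold change from wt 48 h was -2.37 (adjusted p = 0.0101).

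Some transcription factor and receptor genes of the activated CD8+ T cell were higher in KI 48 h than in wt 24 h, most were not called, and none was called lower. Of 33 CD8 fate transcription factors 10 were called higher (median 0.45, and 0.56 in wt 48 h). Gata3, which encodes a factor of T cell differentiation and maintenance, had 8.31, 7.62 and 7.42 CPM in wt 24 h, 18.6, 23.1 and 22.6 in KI 48 h and 11.2, 21.7 and 11.8 in wt 48 h (log2 fold change 1.45 ± 0.18, adjusted p = 0.000327). Zeb2, which encodes a transcriptional repressor that promotes terminal effector differentiation, rose by 1.68 ± 0.21, and Bhlhe40 and Ikzf2 by 1.52 ± 0.26 and 1.83 ± 0.32. Runx1 rose as well and is taken up below.

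Of 20 checkpoint and costimulatory receptor genes 8 were higher (median 0.43). Tnfrsf4, which encodes the costimulatory receptor OX40, had 23.2, 29 and 29.3 CPM in wt 24 h, 70.7, 72.3 and 119 in KI 48 h and 129.6, 159 and 122 in wt 48 h, with no overlap between the compared groups (log2 fold change 1.67 ± 0.20, adjusted p = 0.000316). The inhibitory receptor genes Btla and Tigit rose by 0.59 and 1.02, and Cd44, a marker of activation, by 1.25.

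Of 23 cytokine receptor and SOCS genes 9 rose (median 0.49, and 0.35 in wt 48 h). Il2ra, the high-affinity chain of the interleukin 2 receptor, had 118, 172 and 119.8 CPM in wt 24 h, 242, 242 and 382 in KI 48 h and 519.9, 385 and 415 in wt 48 h. All KI 48 h libraries lay between the wt groups, the highest of them just under the lowest of wt 48 h, with log2 fold changes of 1.08 ± 0.20 from wt 24 h and -0.64 from wt 48 h (adjusted p = 0.00523 and 0.0464). Il21r, Il10ra, Ifnar2 and Il4ra rose by 0.57, 1.48, 0.49 and 0.66. The cytokine receptor count was 6 without the experiment block, and it was 4 without KI 48 h of experiment 1 or of experiment 5 and 2 without wt 24 h of experiment 1. The effector, fate factor and checkpoint counts stayed within 1.5 times of 8, 10 and 8 in each leave-one-out fit, and without the block the effector and fate factor counts were 5 and 6. With the compared groups alone the effector, fate factor, checkpoint and cytokine receptor counts were 4, 4, 2 and 2, and with all 22 libraries 4, 4, 3 and 0.

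**Figure D2:**
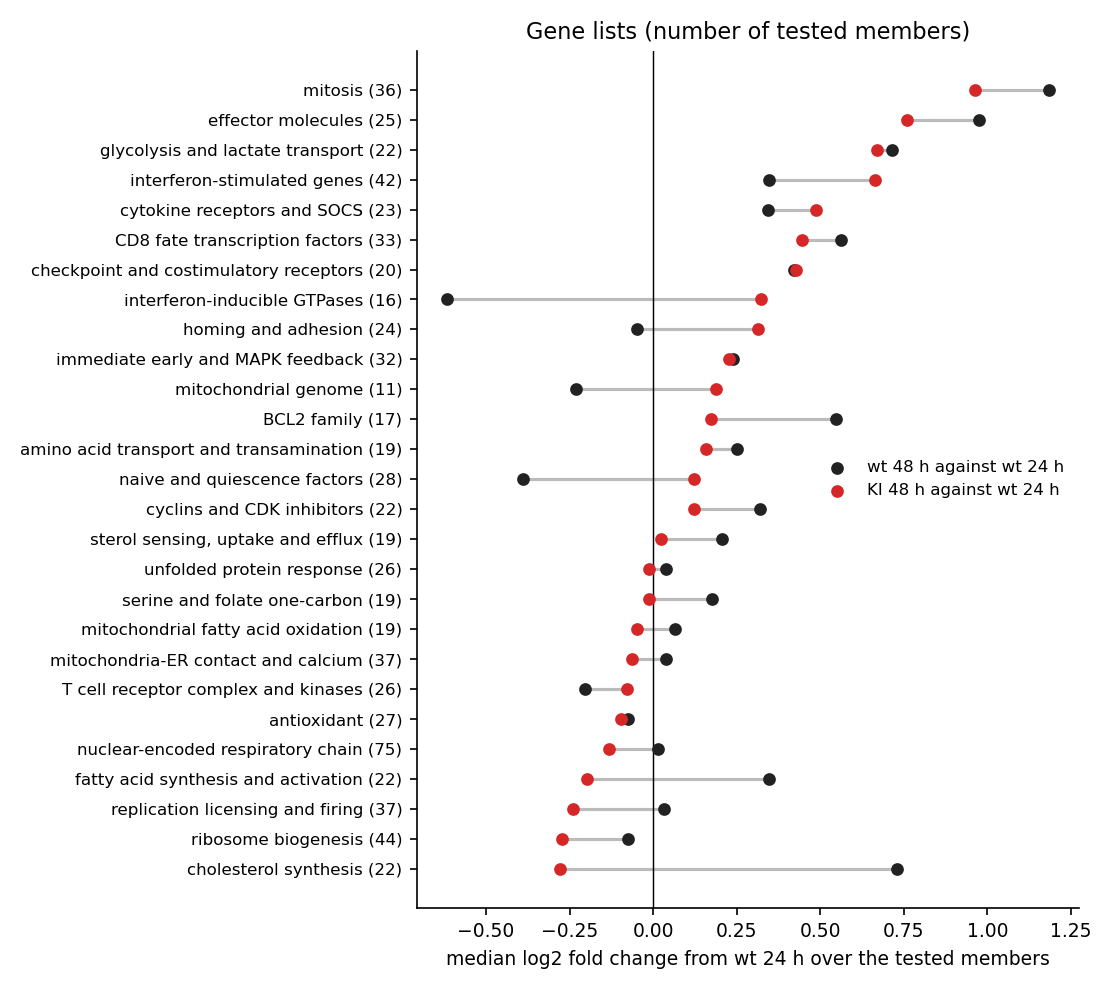
Median log2 fold change from wt 24 h over the tested members of each list (horizontal axis), for KI 48 h in red and wt 48 h in black; both share the wt 24 h libraries. Mitosis, effector and glycolysis genes lie far to the right in both, while cholesterol synthesis lies at -0.28 in KI 48 h and at 0.73 in wt 48 h, and interferon-inducible GTPases at 0.32 and -0.62.

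Cholesterol synthesis genes, which rose in wt cells after 24 h, were at or below the wt 24 h level in KI 48 h. Of 22 cholesterol synthesis enzymes none rose and 2 fell in KI 48 h against wt 24 h by edgeR, 10 had an unadjusted p under 0.05 (9 of them lower), and DESeq2 called 1 higher and 5 lower. The median was -0.28 and all 22 intervals lay within 1 log2 unit of zero. That bound is wider than the median wt change of 0.73, so it does not show equal levels. In wt cells 16 of the 22 rose from 24 h to 48 h (median 0.73), and 19 were lower in KI 48 h than in wt 48 h (median -0.98), as were 5.68% of all genes. The member mean was lower in KI 48 h than in wt 24 h by 0.41, 0.31 and 0.03 log2 units in experiments 1, 3 and 5, and lower than in wt 48 h by 1.21, 0.86 and 0.80.

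Mvk, mevalonate kinase, had 17.2, 18.4 and 14.8 CPM in wt 24 h, 9.67, 11.8 and 10.6 in KI 48 h and 17.8, 21.2 and 12.6 in wt 48 h, and fell below wt 24 h in every experiment (log2 fold change -0.64 ± 0.15, adjusted p = 0.0235). Nsdhl, which acts in the removal of methyl groups from lanosterol, had 40.5, 45.9 and 31.2 CPM in wt 24 h and 25.9, 30.6 and 22.5 in KI 48 h (log2 fold change -0.57 ± 0.14, adjusted p = 0.0292). No member was called lower without KI 48 h of experiment 1 or 3 or wt 24 h of experiment 1 or 3, while 1 was without KI 48 h of experiment 5 and 8 were without wt 24 h of experiment 5. None was with the compared groups alone or with all 22 libraries.

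Of 20 promoter windows of 17 cholesterol synthesis genes, 1 held the sterol response element letters TCACNCCAC on either strand, as did 1.24% of all windows. Its gene was Hmgcs1, which encodes an early enzyme of the pathway, shown 5′ to 3′ on the plus strand at chr13:119690184-119690252 with the match in capitals. ACGTG was found in 3 of the 20 windows. Among the 33 windows of the glycolysis and lactate transport genes, 2 (6.06%) held TCACNCCAC, beside 5.0% of the cholesterol synthesis windows.
Hmgcs1: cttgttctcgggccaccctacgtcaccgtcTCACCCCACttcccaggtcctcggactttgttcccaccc

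Sterol handling genes were mixed, with 3 of 19 higher. Abcg1, a cholesterol exporter, had 47.8, 52.5 and 46.95 CPM in wt 24 h, 76.6, 77.1 and 60.9 in KI 48 h and 48.1, 54.3 and 39.7 in wt 48 h, so KI 48 h was above wt 24 h and wt 48 h in every library (log2 fold change 0.53 ± 0.10, adjusted p = 0.00688, and 0.0516 for lying outside both). In wt naive cells it was higher in each experiment, with unscaled counts of 7131, 6685 and 4853 against 5254, 5608 and 4344 in KI 48 h. Insig2, which retains the sterol sensor in the endoplasmic reticulum, and the lysosomal cholesterol transporter gene Npc1 rose by 0.45 and 0.48. Of 22 fatty acid synthesis and activation genes 3 fell (median -0.20, and 0.35 in wt 48 h). Fasn, fatty acid synthase, had 437, 624 and 397 CPM in wt 24 h and 319, 379.6 and 298 in KI 48 h (log2 fold change -0.54 ± 0.14, adjusted p = 0.0349), and Acaca, which supplies malonyl-CoA, fell by 0.41 ± 0.11. None of the fatty acid genes was called lower without KI 48 h of experiment 1 or wt 24 h of experiment 3, with the compared groups alone or with all 22 libraries, and 1 was without KI 48 h of experiment 5 or wt 24 h of experiment 1. None of the sterol handling genes was called higher with the compared groups alone, with all 22 libraries, or without KI 48 h or wt 24 h of experiment 1, and 1 was without wt 24 h of experiment 3.

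Few mitochondrial and ribosome genes were called against wt 24 h. Of 75 nuclear-encoded respiratory chain genes none was called by edgeR (10 had an unadjusted p under 0.05 and DESeq2 called 1), with a median of -0.13 and all 75 intervals within 1 log2 unit of zero. Without wt 24 h of experiment 5, 7 of them were called lower. Of 37 mitochondria-ER contact and calcium genes none was called by edgeR or DESeq2 (6 had an unadjusted p under 0.05), with a median of -0.06 and 36 intervals within that bound. Bcap31, an endoplasmic reticulum protein, and Osbpl8, a lipid transfer protein, had the smallest p, with log2 fold changes of 0.26 and 0.37 (adjusted p = 0.126 and 0.129). Of 44 ribosome biogenesis genes 1 fell, Polr1b, a subunit of RNA polymerase I, by 0.57 ± 0.15, 16 were lower at an unadjusted p under 0.05 and DESeq2 called 2 lower. The list median was -0.27, and 1 of the 44 members had a fold change above zero. Of 19 fatty acid oxidation genes 1 fell, Eci1, by 0.63 ± 0.12. Over all genes 1.48% were called lower.

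Genes of the mitochondrial genome were not called in either direction by edgeR or DESeq2 (2 of 11 had an unadjusted p under 0.05), and 7 intervals lay within the bound. Of 19 serine and folate one-carbon genes none was called by edgeR (4 had an unadjusted p under 0.05 and DESeq2 called 1 lower), and 17 intervals did. Among amino acid transport and transamination genes 1 of 19 rose and 1 fell, beside 3.59% and 1.48% of all genes. Asns, asparagine synthetase, had 10.9, 39.6 and 6.01 CPM in wt 24 h, 46.7, 57.8 and 79.6 in KI 48 h and 103, 165 and 23.8 in wt 48 h, with a wide spread in both wt groups and an overlap of KI 48 h with wt 48 h (log2 fold change 2.13 ± 0.51, adjusted p = 0.0233). Slc1a5, a glutamine transporter gene, fell from 402, 439 and 454 to 316, 325 and 337 CPM (log2 fold change -0.40 ± 0.11, adjusted p = 0.0366).

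**Figure D3:**
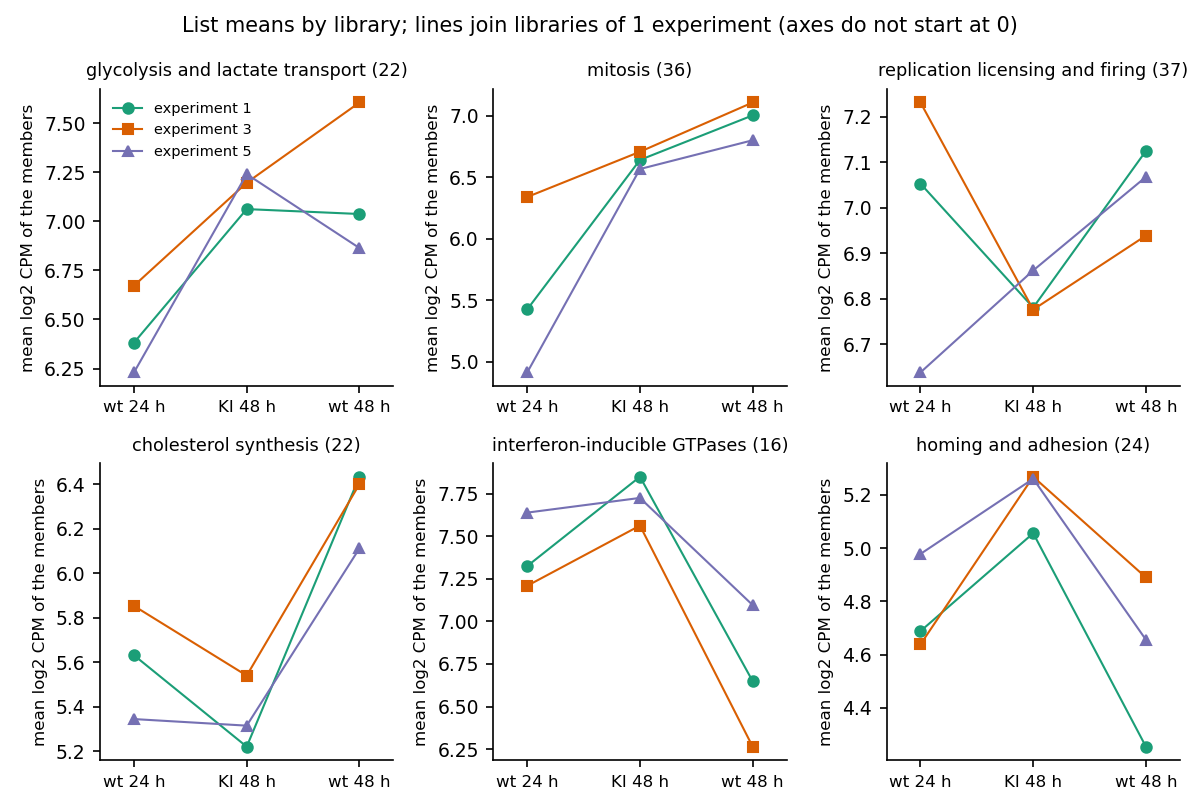
Mean log2 CPM over the members of 6 lists (vertical axis) in the wt 24 h, KI 48 h and wt 48 h libraries (horizontal axis), with lines joining the libraries of 1 experiment. Cholesterol synthesis in KI 48 h lies at or below wt 24 h and well below wt 48 h, homing and adhesion is highest in KI 48 h in all 3 experiments, and replication genes fall in experiments 1 and 3 and rise in experiment 5.

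Genes of the naive state included many that fell in wt cells after 24 h, and none was called lower in KI 48 h than in wt 24 h. Of 28 naive and quiescence factors 13 fell in wt cells from 24 h to 48 h (median -0.39), as did 8.1% of all genes. In KI 48 h against wt 24 h the median was 0.12, 2 rose, and 24 intervals lay within 1 log2 unit of zero. None was called lower by edgeR or DESeq2, though 4 were at an unadjusted p under 0.05. In KI 48 h 15 were higher than in wt 48 h, as were 6.87% of all genes. The experiments differed: the member mean changed from wt 24 h to wt 48 h by -0.55, 0.10 and -0.73 log2 units in experiments 1, 3 and 5, and from wt 24 h to KI 48 h by 0.24, 0.42 and -0.21. KI 48 h was above wt 48 h in each, by 0.79, 0.32 and 0.52. Klf2, which encodes a factor of quiescence and lymphocyte trafficking, averaged 58.8 ± 29.6 CPM in wt 24 h (mean ± SD, n = 3), 49.6 ± 4.996 in KI 48 h and 16.6 ± 3.72 in wt 48 h. Its log2 fold change was -0.19 from wt 24 h (95% interval -0.78 to 0.40) and 1.56 from wt 48 h (adjusted p = 0.00264). Tcf7, which encodes a factor of naive and memory T cells, had a log2 fold change of -0.22 from wt 24 h (adjusted p = 0.203).

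Btg2, an antiproliferative gene, was higher in KI 48 h than in wt 24 h or wt 48 h, with 78, 61.4 and 107 CPM in wt 24 h, 139, 129 and 141 in KI 48 h and 64.4, 98.9 and 81.1 in wt 48 h (log2 fold change 0.74 ± 0.17 from wt 24 h, adjusted p = 0.0206, and 0.132 for lying outside both). It was higher still in wt naive cells, with unscaled counts of 17851, 19556 and 16186 against 9524, 9376 and 10085 in KI 48 h. Bcl2, the other member that rose, encodes a survival protein and reached the wt 48 h level, from 84, 77.1 and 82.1 CPM in wt 24 h to 170.3, 128 and 148 in KI 48 h and 173, 186 and 127 in wt 48 h. Among 17 BCL2 family genes the death-promoting genes Bbc3 and Pmaip1 also rose, by 0.80 ± 0.20 and 0.89 ± 0.22. In the BCL2 family list 1 member was called higher without KI 48 h or wt 24 h of experiment 1 or 3. In the naive factor list 1 was without KI 48 h of experiment 1 or 5 or wt 24 h of experiment 1 or 3, and without wt 24 h of experiment 5 there were 6 higher and 1 lower.

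The genes that fell most clearly in wt cells from 24 h to 48 h were Galnt4, Cxcr6, Galnt10, Bmi1 and Armc9, and KI 48 h stood at or near wt 24 h for 3 of them. Cxcr6, a chemokine receptor gene of tissue-resident T cells, had 50.1, 32.99 and 55.9 CPM in wt 24 h, 56.4, 50.7 and 57.5 in KI 48 h and 9.46, 12.7 and 14.9 in wt 48 h. KI 48 h overlapped wt 24 h and was separate from wt 48 h (log2 fold changes 0.28 ± 0.16 and 2.17). Galnt4 and Galnt10, glycosyltransferase genes, had log2 fold changes of 0.019 and -0.20 from wt 24 h. Bmi1, a Polycomb gene, and Armc9 fell part of the way, by 0.39 and 0.67 in KI 48 h and by 1.01 and 1.27 in wt 48 h. Of the genes that rose most clearly in wt cells, Rhoq and Nebl likewise rose part of the way, by 0.80 and 1.83 in KI 48 h and by 1.55 and 3.17 in wt 48 h.

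Interferon-inducible GTPases fell in wt cells after 24 h and were well above that level in KI 48 h. Of 16 interferon-inducible GTPases 2 rose against wt 24 h (median 0.32), beside 3.59% of all genes. In wt 10 fell from 24 h to 48 h (median -0.62), as did 8.1% of all genes. In KI 48 h 15 were higher than in wt 48 h (median 1.00), as were 6.87% of all genes. Gbp7, a guanylate-binding protein gene of host defence, had 93.97, 113 and 162 CPM in wt 24 h, 211, 205 and 205 in KI 48 h and 71.2, 82.7 and 81.7 in wt 48 h. KI 48 h was above every wt library (log2 fold change 0.75 ± 0.18 from wt 24 h, adjusted p = 0.0258, and 0.158 for lying outside both wt groups). Gbp3 had 62.5, 58.8 and 84.7, 107, 95.97 and 111 and 44.7, 42.6 and 71.8 CPM in the same groups, again with KI 48 h highest (0.62 ± 0.14 from wt 24 h, adjusted p = 0.0135, and 0.0937 for lying outside both). No GTPase was called against wt 24 h without KI 48 h of experiment 1 or wt 24 h of experiment 1 or 3, and 1 was without KI 48 h of experiment 3 or 5. None was with the compared groups alone or all 22 libraries.

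Of 42 interferon-stimulated genes 15 were called higher in KI 48 h than in wt 24 h (median 0.66, and 0.35 in wt 48 h). Ifih1, which encodes the RNA sensor MDA5, had 7.69, 7.0 and 9.85 CPM in wt 24 h, 16.8, 18.3 and 23.4 in KI 48 h and 16.2, 21.6 and 19.8 in wt 48 h, so both 48 h groups were above wt 24 h and overlapped each other (log2 fold change 1.25 ± 0.14, adjusted p = 0.000178). Usp18, a brake on interferon signalling, and Epsti1 were higher than in wt 24 h by 0.95 ± 0.17 and 0.62 ± 0.11. The member mean was 3.41, 3.34 and 3.99 log2 CPM in wt 24 h and 4.31, 4.16 and 4.22 in KI 48 h, and it was 4.39, 4.55 and 4.53 in KI cells at 24 h. Before stimulation it was already higher in KI, at 6.67, 6.62 and 6.70 in naive KI cells against 5.30, 5.48 and 5.26 in naive wt cells. The count was 1 with the compared groups alone, 4 with all 22 libraries, 7 without the experiment block, 5 without KI 48 h of experiment 1 or 3, 4 and 6 without wt 24 h of experiment 1 and 3, and 19 without that of experiment 5.

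Homing and adhesion genes had a member mean higher in KI 48 h than in wt 24 h and wt 48 h in all 3 experiments, but lower than in wt naive cells. It was 4.69, 4.64 and 4.98 log2 CPM in wt 24 h, 5.06, 5.27 and 5.26 in KI 48 h and 4.25, 4.89 and 4.66 in wt 48 h. Of 24 members 7 rose and 1 fell against wt 24 h, beside 3.59% and 1.48% of all genes. In KI 48 h 11 were higher than in wt 48 h, as were 6.87% of all genes. Cxcr4, a chemokine receptor gene, had 11.2, 9.85 and 20.2 CPM in wt 24 h, 47.4, 56 and 40.7 in KI 48 h and 18.4, 41.1 and 19.8 in wt 48 h (log2 fold change 1.84 ± 0.33, adjusted p = 0.00426). Of the wt 24 h and wt 48 h libraries, only wt 48 h of experiment 3 reached the KI 48 h range. Ccr9, a gut homing receptor gene, averaged 20.1 ± 10.2, 38.1 ± 8.78 and 8.29 ± 3.33 CPM (mean ± SD, n = 3) in wt 24 h, KI 48 h and wt 48 h, with a log2 fold change of 1.00 from wt 24 h and 2.27 from wt 48 h (adjusted p = 0.022 and 7.27e-05). Itgae, the integrin chain CD103, fell from 105 ± 35.01 to 63.97 ± 24.6 CPM and stood at 25.1 ± 7.61 in wt 48 h. The count of higher members was 3 or 4 without any 1 of KI 48 h of experiment 1, 3 or 5 and wt 24 h of experiment 1 or 3, and 3 without the block. No homing gene was called with the compared groups alone or with all 22 libraries.

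Smaller numbers of stress and early response genes moved. Of 26 unfolded protein response genes 5 rose and 1 fell, beside 3.59% and 1.48% of all genes. Among those that rose were Trib3, a pseudokinase gene induced by ATF4, with 3.43, 6.79 and 4.34 CPM in wt 24 h, 19.1, 15.6 and 35.3 in KI 48 h and 31.3, 34.04 and 16.05 in wt 48 h (log2 fold change 2.34 ± 0.35, adjusted p = 0.00141), and Ddit3, which encodes CHOP (1.06 ± 0.21). Sdf2l1, a partner of endoplasmic reticulum chaperones, fell by 0.78 ± 0.21. Of 32 immediate early and MAPK feedback genes 6 rose, among them Nr4a2 and Nr4a3, nuclear receptors induced by T cell receptor signals, with 1.87 ± 0.39 and 0.96 ± 0.20. Of 27 antioxidant genes 1 rose, Sesn2, by 1.19 ± 0.17, beside 3.59% of all genes. Of 26 T cell receptor complex and kinase genes 1 fell, Trbc1, by 0.41 ± 0.11, beside 1.48% of all genes, with all 26 intervals within 1 log2 unit of zero. Such single calls say little about a list as a whole. The number higher in the unfolded protein response list was 2 and 3 without KI 48 h of experiment 1 and 5 and 1 and 3 without wt 24 h of experiment 1 and 5. It was 1 with the compared groups alone and with all 22 libraries. In the early response list it was 3 with all 22 libraries, 2 without KI 48 h of experiment 5, and 1 and 3 without wt 24 h of experiment 1 and 3. Of the single calls, that of Sesn2 was made in each fit that left out a compared library, Trbc1 and Polr1b were called only without wt 24 h of experiment 5, and Asns was not called without KI 48 h of experiment 5 or wt 24 h of experiment 1 or 5. Slc1a5 was called in none of these fits, and Eci1 was not without KI 48 h or wt 24 h of experiment 1.

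For a gene that moves in 1 direction between 24 h and 48 h in wt cells, a delay would place KI 48 h between the wt 24 h and wt 48 h levels. A gene that peaks or dips between those times could lie outside them under a delay too, which was not tested since no wt library falls between. A gene was called outside this span when KI 48 h differed in the same direction from both wt groups, taking the larger of the 2 p-values and adjusting over all genes. This held for 32 genes (0.158%), 27 higher (0.133%) and 5 lower (0.0247%), and 1223 genes had an unadjusted p under 0.05, 627 higher and 596 lower. Of the 32 genes 16 reached a mean of 10 CPM in at least 1 of the 3 groups. Only 8 (0.0395%) also lay outside the wt naive level, 6 higher and 2 lower. Tcaim, the targeted gene, was among them in each count of genes in total or higher. By fitted means alone, 342 of the 1026 genes called against wt 24 h lay between the wt 24 h and wt 48 h levels. Another 582 lay beyond wt 48 h on the same side, and for 102 wt cells moved the other way. A gene not called outside the span is therefore not shown to lie within it.

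Runx1, which encodes a transcription factor of T cell development and activation (chromosome 16, 92601466 to 92826149, GRCm38), had 7.31, 11.8 and 12.97 CPM in wt 24 h, 23.6, 24.9 and 25.2 in KI 48 h and 9.03, 13.2 and 14.5 in wt 48 h. All KI 48 h libraries were above all 6 wt libraries, which overlapped each other. The log2 fold change was 1.23 ± 0.14 from wt 24 h and 1.03 from wt 48 h, and the adjusted p for lying outside the span was 0.00535. In wt naive cells Runx1 was at 40.1, 45.8 and 44.1 CPM, above KI 48 h.

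Ptger2, a receptor gene for prostaglandin E2 (chromosome 14, 44988195 to 45003820), had 7.42, 8.303 and 10.6 CPM in wt 24 h, 18.8, 18.6 and 27.8 in KI 48 h and 7.05, 10.1 and 8.75 in wt 48 h. KI 48 h was separate from both wt groups, which overlapped (log2 fold changes 1.30 ± 0.18 and 1.32, adjusted p for lying outside = 0.00622). It was at 2.25, 1.96 and 1.78 CPM in wt naive cells and so exceeded all 3 wt groups. Gm17173, with exons on the opposite strand over Ptger2, was also called, and the 2 cannot be told apart where counting ignored strand.

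Nrp1, a semaphorin and growth factor coreceptor gene (chromosome 8, 128358604 to 128503363), had 10.9, 10.1 and 10.1 CPM in wt 24 h, 25.8, 17.7 and 36.8 in KI 48 h and 10.5, 10.1 and 14.4 in wt 48 h (adjusted p = 0.0237). The lowest KI 48 h value was above the highest of wt 24 h and wt 48 h, and the KI 48 h libraries were widely spread. Rasa1, an inhibitor of RAS signalling (chromosome 13, 85214780 to 85289130), had 106, 99.9 and 112, 182, 164 and 165 and 104, 129 and 89.3 CPM in the same groups (adjusted p = 0.031). Cacng4, a calcium channel subunit gene (chromosome 11, 107732357 to 107794557), had 2.75, 2.99 and 2.81, 12.6, 12.2 and 12.5 and 0.667, 2.598 and 0.711 CPM (adjusted p = 0.031). For both of these genes all KI 48 h libraries were above all wt 24 h and wt 48 h libraries.

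Zbtb2, a zinc finger gene (chromosome 10, 4367075 to 4388108), and Rbm15, which encodes an RNA-binding protein of the RNA methylation complex (chromosome 3, 107325421 to 107333673), were changed less. Zbtb2 had 26.2, 23.7 and 28.3 CPM in wt 24 h, 41.1, 34.5 and 40.6 in KI 48 h and 24.4, 24.3 and 28.6 in wt 48 h (log2 fold change 0.57 ± 0.10 from wt 24 h). Rbm15 had 59.9, 67.01 and 53.7, 85.5, 84.3 and 85.98 and 59.8, 63.01 and 58.5 CPM (0.51 ± 0.088). For both, the adjusted p was 0.031 and the KI 48 h values did not overlap those of wt 24 h or wt 48 h. In wt naive cells Zbtb2 was at 39.7, 42.2 and 40.7 CPM, the KI 48 h range, and Rbm15 was at 43.5, 50.8 and 43.02 CPM, below it.

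On the low side, As3mt, an arsenic methyltransferase gene (chromosome 19, 46707443 to 46741095), had 23.5, 21.1 and 21.9 CPM in wt 24 h, 7.69, 8.05 and 7.94 in KI 48 h and 14.9, 14.6 and 13.2 in wt 48 h. KI 48 h was the lowest group with almost no spread (log2 fold changes -1.49 ± 0.11 and -0.85, adjusted p = 0.00426), and it was also below wt naive, at 15.3, 14.3 and 16.9 CPM. Tle1, a corepressor gene of the Groucho family (chromosome 4, 72117142 to 72200919), had 14.95, 11.5 and 15.5 CPM in wt 24 h, 7.89, 6.102 and 7.07 in KI 48 h and 15.7, 10.5 and 13.7 in wt 48 h (adjusted p = 0.0103). Dnajb5, a heat shock cochaperone gene (chromosome 4, 42949814 to 42959425), had 40.1, 42.2 and 38.1, 19.96, 25.01 and 24.8 and 42.5, 33.1 and 43.02 CPM (adjusted p = 0.0219). For both, every KI 48 h library was below every wt 24 h and wt 48 h library. Runx1, Rasa1 and Tle1 have exons over another gene on the opposite strand (Gm26626, Ccnh and Gm11250), so their counts are uncertain in the same way. In wt naive cells Tle1 was at 20.5, 21.3 and 20.4 CPM, above every KI 48 h library, and Dnajb5 at 14.8, 14.04 and 14.6 CPM, below every one.

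The next genes on the low side did not pass. Mtg1, a GTPase gene of the mitochondrial ribosome, had 23.1, 24.9 and 26.8 CPM in wt 24 h, 16.6, 16.1 and 18.5 in KI 48 h and 29.02, 26.4 and 26.9 in wt 48 h (adjusted p = 0.0516). Eif4enif1, a translation repressor gene, Sipa1, a RAP inhibitor gene, Lrp8, a lipoprotein receptor gene, and Slc9a5, a sodium-proton exchanger gene, had adjusted p of 0.0582, 0.0584, 0.0693 and 0.0836.

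**Figure D4:**
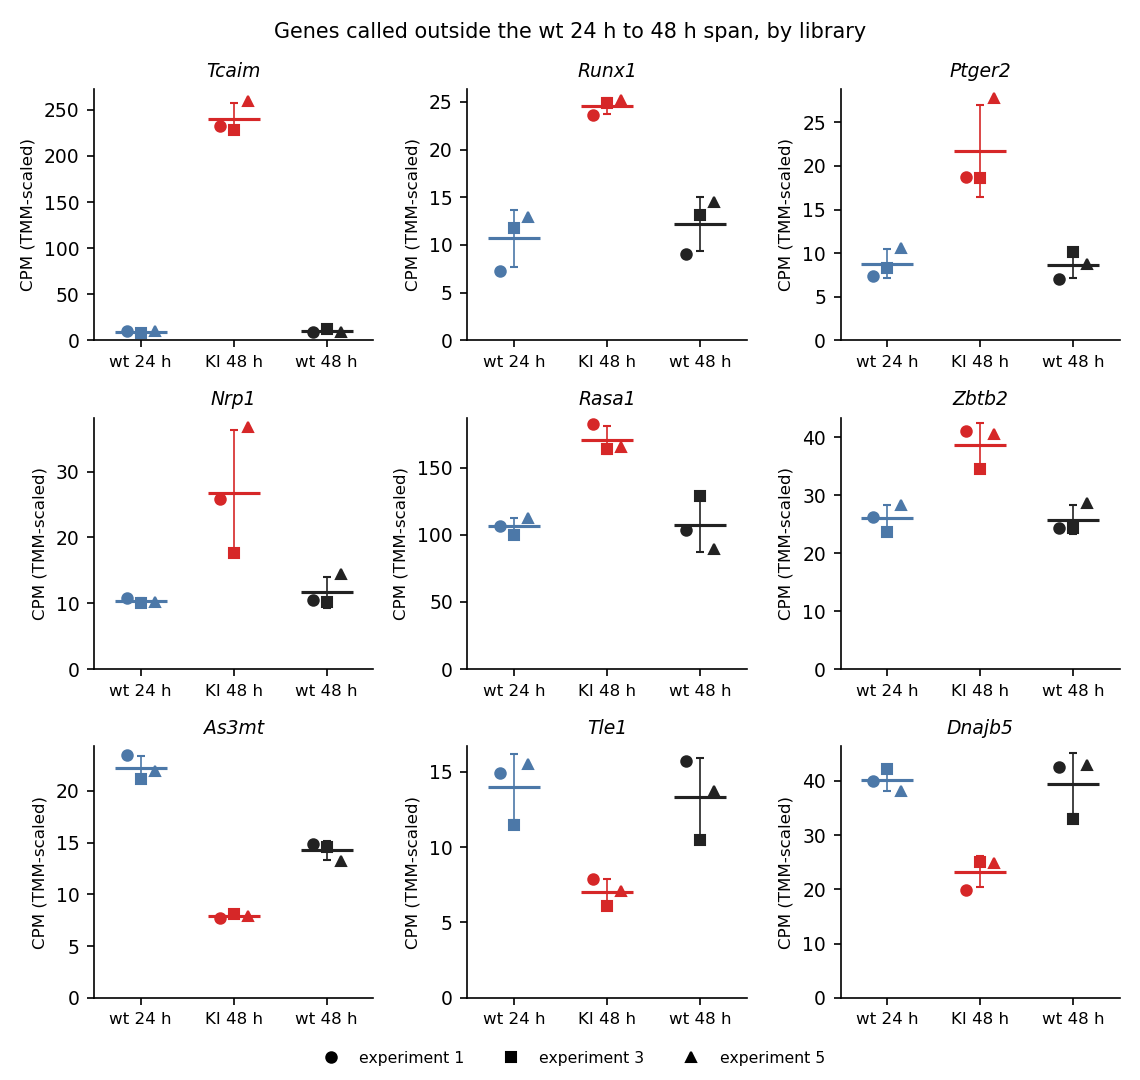
CPM in each library (vertical axes, from 0) for 9 genes called outside the wt 24 h to 48 h span, in wt 24 h, KI 48 h and wt 48 h; symbols mark experiments, bars the mean and whiskers 1 SD (n = 3). The KI 48 h libraries of each gene lie above (Tcaim, Runx1, Ptger2, Nrp1, Rasa1, Zbtb2) or below (As3mt, Tle1, Dnajb5) all libraries of both wt groups.

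The number of genes outside the span depended on single libraries. It was 2, 6 and 17 without KI 48 h of experiment 1, 3 and 5, 8 and 10 without wt 24 h of experiment 1 and 3, 6 and 18 without wt 48 h of experiment 1 and 5, and 198 (134 higher, 64 lower) without wt 48 h of experiment 3. The wt 48 h omissions were chosen after seeing the data. Without the experiment block it was 5, and it was 1, Tcaim, with the 3 groups of this test alone or with all 22 libraries. Of the genes named above, Tcaim was called in all 19 alternatives, As3mt in 16, Ptger2 in 14, Runx1 in 13, Tle1 in 11 and Dnajb5 in 10, and Zbtb2, Nrp1, Rasa1, Cacng4 and Rbm15 in 9, 9, 8, 8 and 5.

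Among the 198 genes called outside the span without wt 48 h of experiment 3 were all 32 found with it. Members of the lists that joined on the high side were Slc2a3 and Gapdh (glucose transport and glycolysis), Gata3, Abcg1, Btg2, Btla, Tnfsf10 and Gbp3, and on the low side Scap, Utp20, Orc2 and Sdf2l1, which were picked out after their values were seen. Of the cell type marker lists, Ms4a1 (B cell) and Trgv2 (gamma delta T cell) also joined on the high side. Markers of other lymphocytes moved too: summed gamma delta T cell markers were 17.5 to 28.3 CPM in wt 24 h, 23.8 to 43.9 in KI 48 h and 7.75 to 18.8 in wt 48 h, with 2 of 7 called higher in KI 48 h against wt 24 h. Tcrg-C2 and Tcrg-C4, gamma chain constant genes, were among the 32 at 1.16, 1.398 and 1.92 and 0.804, 1.02 and 1.68 CPM in wt 24 h and 4.902, 4.67 and 5.37 and 3.14, 3.13 and 3.89 in KI 48 h. Trdc, the delta chain constant gene, was at 7.29, 10.3 and 14.96 CPM in wt 24 h, 13.1, 13.6 and 18.4 in KI 48 h and 3.72, 7.19 and 9.84 in wt 48 h. CD4 T cell and Treg markers summed to 40.8 to 68.0 CPM in wt 24 h, 76.3 to 128 in KI 48 h and 64.4 to 136 in wt 48 h. Against wt 24 h, 4 of 5 had a fold change above zero and 2 were called higher, 1 of them Ikzf2. None was called in KI 48 h against wt 48 h. Foxp3 had 18.1, 17.5 and 16.8 CPM in wt 24 h and 15.8, 13.3 and 16.8 in KI 48 h. Of 9 B cell markers Ms4a1 was called higher and Ighm lower against wt 24 h, and 7 had a fold change above zero (median 0.35). Against wt 48 h, 6 of the 9 were called higher in KI 48 h and none lower (median 0.89). Of 9 dendritic cell markers 1, Zbtb46, was called higher than in wt 24 h. The part of these marker changes in the results was not tested.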

How the data were processed

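The deposited counts per Ensembl gene (46603 genes) came from stranded poly(A) libraries per the labels' protocols. The submitters' processing notes name bcl2fastq 2.20.0, TopHat2 2.1.0, Bowtie2 2.2.5, SAMtools 0.1.19, featureCounts and DESeq2 1.6.3, and the builds GRCm38 and mm10. Annotation and strand setting are not given in the sources used here. The authors' deposited log2 normalized table gave symbols and positions only. Of the genes tested, 13850 took their symbol from the files, 6237 from the GENCODE vM21 annotation, and 141 had none.

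Counts of the 18 KI-line libraries were filtered (filterByExpr, minimum count 10, total 15), TMM-scaled and fitted in edgeR 4.0.16 (R 4.3.3) with 6 group means and experiment as a block, and p-values were adjusted by Benjamini-Hochberg. Fold changes are given with their SE. The pairing comes from the experiment named in the labels. Deviations from the group means of KI 48 h and wt 24 h correlated at 0.386, 0.162 and 0.197 in the 3 same-experiment pairs, and at -0.315 to 0.069 otherwise. Replicates of a group are separate mice, but naive, 24 h and 48 h libraries of a genotype and experiment share 1 mouse, and mouse was not a term, so p-values rest on spread between and within mice. Scripts were tested on simulated data. DESeq2 1.42.0 was an alternative.

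Members and lists were chosen with earlier results of these data known. Named genes were Tcaim, the 10 called genes per direction with the smallest p (10 CPM or more, same direction in each experiment), 8 per direction outside the span, up to 5 called members per list (2 if none), and 5 per direction from wt 48 h against wt 24 h. Aldoa, Pgk1, Slc2a3, Gapdh, Hmgcs1, Ifng, Klf2, Tcf7, Ccr9, Itgae and the marker and overlapping genes fall outside this rule and were chosen after their values were seen. Of 116 named genes, 36 have an exon over another gene, and their counts, like those of close relatives such as the Gbp and Tgtp genes, are uncertain. Total counts over the 18 libraries ran from 62551905 to 93489115. Libraries of the KO line entered only the alternative with all 22 libraries.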

Additional observations from a re-analysis of the deposited data

How the results depend on the processing

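The counts depended on how the spread was estimated. For called genes in total, higher and lower, and then for genes outside the span in total, higher and lower, the values were 582, 423 and 159 and 5, 3 and 2 with no replicate block. They were 300, 237 and 63 and 1, 1 and 0 with all 22 libraries, 641, 519 and 122 and 8, 7 and 1 with the 12 stimulated libraries, 143, 133 and 10 and 1, 1 and 0 with the compared groups alone, and 1778, 1104 and 674 and 183, 110 and 73 with DESeq2. Without a filter on low counts 62, 50 and 12 genes lay outside the span. Upper-quartile scaling and the listed genes alone each put 9 genes below the span. Leaving out 1 library at a time gave 337 to 1223 called genes, 261 to 775 higher and 66 to 448 lower, and 2 to 198 (the omissions of wt 48 h libraries were chosen after seeing the data) outside the span, 2 to 134 higher and 0 to 64 lower. The other scalings moved the median of all genes by less than 0.1 log2. For the named genes, no direction of a called gene reversed in any alternative, and calls were lost 318 times and gained 17 times in 1854 gene and alternative pairs. With 3 mice per group, the 95% interval lay within 1 log2 unit of zero for 64.6% of genes. Among genes with a mean of 10 CPM or more in either group this held for 94.6%, and for a smaller share of genes under 10 CPM.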

Other observations

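Among 13 genes known to respond to low oxygen, picked after values were seen and so given without a test, several were high in all 3 KI 48 h libraries and in the wt 48 h library of experiment 3, and others were not. Bnip3, a mitophagy receptor gene, had 4.53, 4.83 and 3.69 CPM in wt 24 h, 27.7, 28.4 and 25.3 in KI 48 h and 8.56, 34.2 and 7.55 in wt 48 h of experiments 1, 3 and 5. P4ha1, a collagen prolyl hydroxylase gene, had 42.2, 50.1 and 46.5 CPM in wt 24 h, 122, 121 and 147 in KI 48 h and 88.2, 164 and 91.9 in wt 48 h. Ndrg1, a stress-induced growth regulator gene, had 12.2, 15.7 and 14.3, 44.9, 53.1 and 64.2 and 20.9, 86.7 and 13.3 CPM in the same groups. For these 3 genes the wt 48 h library of experiment 3 exceeded every KI 48 h library, and the other 2 wt 48 h libraries were below every KI 48 h library. Egln3, an oxygen sensor gene, differed from them: it had 5.42, 6.47 and 4.35 CPM in wt 24 h, 9.79, 13.7 and 16.3 in KI 48 h and 12.1, 44.3 and 7.14 in wt 48 h, so KI 48 h stayed well below wt 48 h of experiment 3. Vegfa, a vascular growth factor gene, had 3.96, 8.75 and 5.804 CPM in wt 24 h and 18.4, 22.99 and 26.2 in KI 48 h, and 31.1, 44.8 and 23.7 in wt 48 h, so it was high in every wt 48 h library. Ankrd37 had 5.21, 5.32 and 4.59 CPM in wt 24 h, 13.2, 10.6 and 12.03 in KI 48 h and 11.2, 22.6 and 15.2 in wt 48 h, and KI 48 h overlapped wt 48 h. Car9, a carbonic anhydrase gene, had 0.889, 0.423 and 0.555 CPM in wt 24 h and 0.627, 0.907 and 0.532 in KI 48 h, with overlap.

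Several genes outside the wt span were expressed at low levels and were also picked after their values were seen. Il1r2, which encodes a decoy receptor for interleukin 1, had 0.169, 0.517 and 0.867 CPM in wt 24 h, 4.32, 4.45 and 3.87 in KI 48 h and 0.0953, 0.328 and 0.657 in wt 48 h. P2rx7, an ATP-gated channel gene, had 0.691, 1.06 and 0.867, 2.67, 1.99 and 3.36 and 0.5003, 0.694 and 0.523 CPM in the same groups, and was at 20.9, 20.9 and 20.8 CPM in wt naive cells. Tnfsf8, which encodes the CD30 ligand, was better expressed, with 78.2, 75.7 and 112 CPM in wt 24 h, 227, 206 and 266 in KI 48 h and 111, 95.3 and 162 in wt 48 h.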
